A study of Mus musculus with 12 samples.

Results

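TRBV14, TRBV17, TRBV20, TRBV23, TRBV30 and TRBV31 are 6 variable segments of the mouse T cell receptor beta locus. Their receptors were taken as every productive beta chain (TRB) contig that the deposited tables assign to one of these 6 segments, and no measured level entered that choice. This gave 901 of 7257 productive TRB contigs. The cells were CD45+ immune cells, sorted either from brain parenchyma or from the meninges (the membranes that enclose the brain) of C57BL/6 mice. The 5xFADTg animals express mutant human amyloid precursor protein and presenilin in neurons and build up amyloid plaques, and the NonTg animals lack these transgenes. The receptor libraries were 2 NonTg and 2 5xFADTg from parenchyma and 1 NonTg and 1 5xFADTg from meninges. No animal is named in the labels, so the spread between libraries may be partly technical, and each meninges group is a single library.

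A beta chain gene is built in the thymus by joining a D segment to a J segment and then a V segment to that pair. The joint codes the CDR3, the loop of the receptor that meets the peptide on its presenting molecule, and bases are trimmed and added at each junction before it is closed. The beta locus has a pair of D-J-C clusters, in which TRBD1 can join to either J cluster and TRBD2 joins only to TRBJ2. Nearly all V segments lie on one side of these clusters and join by deletion. TRBV31 lies on the far side in the opposite orientation and joins by inversion. A T cell normally expresses a single beta chain, and the locus on the other chromosome is often rearranged out of frame.

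The germline ends of the 6 segments, from the conserved cysteine codon to the last V base, are shown because they set the first letters and part of the length of every CDR3 described here. They were read from GENCODE M21 transcripts (GRCm38, the assembly of mm10), 5′ to 3′, and capitals mark the cysteine codon.
TRBV14: TGTgccagcagtttct
TRBV17: TGTgctagcagtagaga
TRBV20: TGTggtgctaggga
TRBV23: TGCtccagcagtcaatc
TRBV30: TGTagttctagaga
TRBV31: TGTgcctggagtct
The ends of TRBV20, TRBV30 and TRBV31 have 14 bases, that of TRBV14 has 16, and those of TRBV17 and TRBV23 have 17.

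All 6 lie on chromosome 6. TRBV14 (chr6:41135145-41135616, plus strand) is 398 kb from TRBD1 and TRBV17 (chr6:41163062-41163556, plus strand) is 370 kb from it. TRBV20 (chr6:41188273-41188977, plus strand) is 344 kb away, TRBV23 (chr6:41216073-41216526, plus strand) 317 kb and TRBV30 (chr6:41281376-41281990, plus strand) 251 kb. TRBV31 (chr6:41557691-41558452, minus strand) starts 24.5 kb past TRBD1 and 9.34 kb past TRBC2, beyond the J and C genes. Calling all 6 downstream segments holds for their order in the locus but not for a separate block. TRBV15, TRBV16, TRBV19, TRBV26 and TRBV29 lie between TRBV14 and TRBV30, and these 5 held mean shares of 2.89 to 7.05% of clonotypes.

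Each library held 15827899 to 26710709 reads and 49997 to 128700 unique molecular identifiers (UMIs) over its listed contigs. Pairs of libraries shared 0 to 4 cell barcodes. No contig of a gamma or delta chain or of an immunoglobulin was listed, which is what an alpha and beta enrichment gives and does not show that such cells were missing from the sort. The 901 TRB contigs had a median of 8 UMIs, like the median of 8 in the other TRB contigs, and 15 of them rested on 1 UMI. A paired clonotype was counted per library as one TRB and one alpha chain (TRA) CDR3 nucleotide sequence over cells with exactly 1 productive TRB. The 6 segments made up 374 of 3108 paired clonotypes and 630 of 5207 paired cells. By segment there were 92 clonotypes of TRBV14, 75 of TRBV17, 83 of TRBV20, 10 of TRBV23, 8 of TRBV30 and 106 of TRBV31.

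The 6 segments together held close to one share of the repertoire in every library. They made up 10.9% and 14.5% of clonotypes in NonTg parenchyma, 12.02% and 12.1% in 5xFADTg parenchyma, 13.3% in NonTg meninges and 9.51% in 5xFADTg meninges. Over the 6 libraries this was 12.1% ± 1.74 (SD, n = 6). Among 22 TRBV labels ordered by mean share, TRBV31 ranked 14, TRBV14 ranked 16, TRBV20 ranked 18, TRBV17 ranked 19, TRBV23 ranked 21 and TRBV30 ranked 22. The mean shares were 3.38% ± 0.572 for TRBV31, 2.93% ± 0.804 for TRBV14, 2.74% ± 0.875 for TRBV20 and 2.38% ± 0.448 for TRBV17 (SD, n = 6 each). TRBV26 (rank 15) and TRBV15 (rank 17) lay among these 4 segments. The steps from one of the 4 to the next were smaller than their SDs. TRBV23 at 0.379% ± 0.224 and TRBV30 at 0.237% ± 0.141 (SD, n = 6) stood well below them, and their own difference was within the SD. Position in the locus did not order the shares: TRBV20 and TRBV17 lay next to TRBV19, which held 7.05% ± 1.12, and TRBV30 lay next to TRBV29, which held 5.38% ± 1.65 (SD, n = 6).

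**Figure D1:**
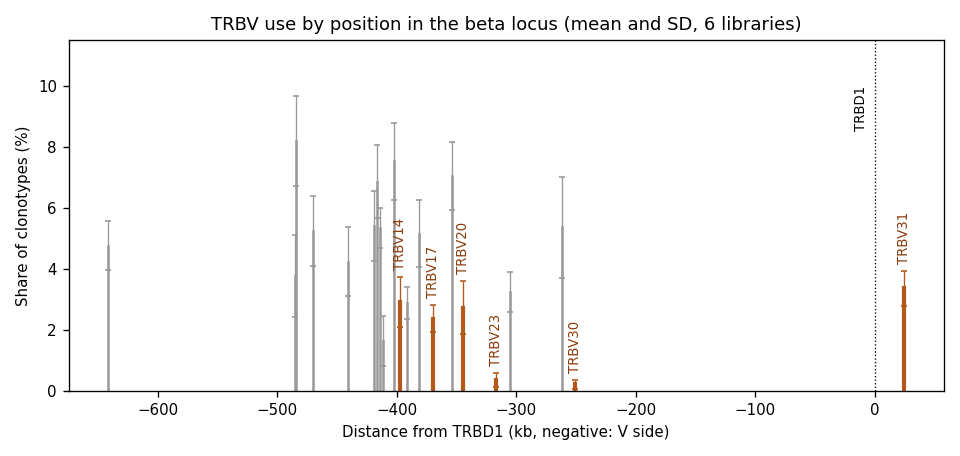
Mean share of paired clonotypes (%, error bars SD over 6 libraries) of each TRBV segment against its distance from TRBD1 (kb), with the 6 segments described here in orange and the others in grey. TRBV31 stands alone past TRBD1 at 3.38%, TRBV23 and TRBV30 are the lowest bars, and the joint label TRBV12-2+TRBV13-2 is not drawn because it has no single position.

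By the smallest mean absolute difference in share over the 6 libraries, TRBV15 was the segment most like TRBV14 (0.348 percentage points), TRBV20 (0.589) and TRBV17 (0.636). TRBV20 was the most like TRBV31 (0.639), and TRBV23 and TRBV30 were the most like each other (0.235).

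No segment was called different between 5xFADTg and NonTg parenchyma. TRBV14 held 2.64% and 3.12% of NonTg clonotypes against 3.501% and 2.93% of 5xFADTg clonotypes, so the groups overlapped. TRBV17 had 1.98% and 2.004% in NonTg and 2.28% and 3.06% in 5xFADTg, with both 5xFADTg libraries above both NonTg libraries. TRBV20 had 2.31% and 4.45% in NonTg and 2.59% and 2.17% in 5xFADTg, where NonTg library 2 was the high one. TRBV31 had 3.47% and 4.45% in NonTg and 3.20% and 3.32% in 5xFADTg, with both 5xFADTg libraries lower. A quasi-likelihood test in edgeR on counts of clonotypes over all V and J segments called 0 of 118 (0% called). Before adjustment 6 segments (5.08%) had a p under 0.05 in edgeR and 0 in DESeq2, which also called 0. None of the 4 members tested was among either set. The log2 fold changes, 5xFADTg over NonTg, were 0.17 for TRBV14 (SE 0.25), 0.44 for TRBV17 (SE 0.28), -0.45 for TRBV20 (SE 0.37) and -0.26 for TRBV31 (SE 0.24), with adjusted p of 0.935 to 0.949 in edgeR. Their median was -0.04, beside 0.04 over all 118 segments. The changes of TRBV14 and TRBV20 had no stable direction: counted as cells they were -0.49 and 0.07, and without NonTg parenchyma library 2 that of TRBV20 was 0.03. TRBV23, with 0.330% and 0.223% in NonTg and 0.152% and 0.255% in 5xFADTg, had too few clonotypes for the test. TRBV30, with 0.165% and 0.223% in NonTg and 0.304% and 0.383% in 5xFADTg, rested on 1 to 3 clonotypes per library and was not tested either.

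No member was called different between meninges and parenchyma, and with 2 meninges libraries the estimates were wide. The fit took the libraries as independent, although meninges and parenchyma libraries of one genotype shared clonotypes. TRBV14 was 3.85% of clonotypes in the NonTg meninges and 1.53% in the 5xFADTg meninges, the highest and the lowest of its 6 values. TRBV17 was 2.80% and 2.15%, TRBV20 was 2.80% and 2.15%, and TRBV31 was 2.80% and 3.07%, in the same order. TRBV23 was 0.699% and 0.613%, both above its 4 parenchyma values of 0.152 to 0.330%, on 2 clonotypes per meninges library. TRBV30 was 0.350% in the NonTg meninges, on 1 clonotype, and was not found among the 326 clonotypes (0 of 326) of the other meninges library, where a count of 0 allows up to 0.920%. With genotype as covariate edgeR called 0 of 120 segments (0% called), and 7 (5.83%) had a p under 0.05 before adjustment, no member among them. DESeq2 also called 0, with 2 below 0.05 before adjustment. The log2 fold changes, meninges over parenchyma, were -0.22 for TRBV14 (SE 0.38), 0.04 for TRBV17 (SE 0.39), -0.17 for TRBV20 (SE 0.40), 1.34 for TRBV23 (SE 0.84) and -0.27 for TRBV31 (SE 0.31), with adjusted p of 0.953 to 0.987 in edgeR. The median was -0.17, beside -0.01 over all 120. The direction turned for TRBV14 without the 5xFADTg meninges, to 0.43, for TRBV20 without NonTg parenchyma library 2, to 0.05, and for TRBV17 under 5 of 11 alternatives.

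**Figure D2:**
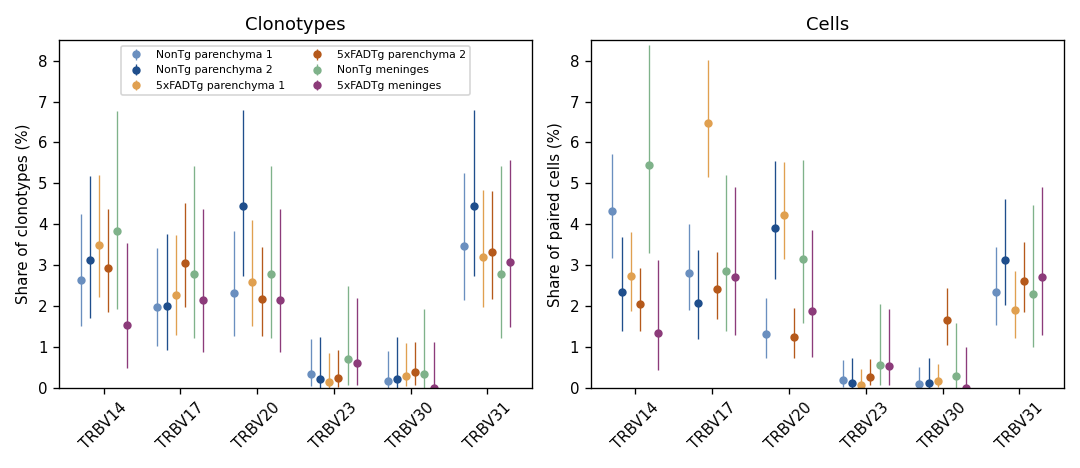
Share of paired clonotypes (left, %) and of paired cells (right, %) of each segment in each of the 6 libraries, with 95% exact binomial intervals that cover counting error only. The clonotype shares overlap between libraries, while the cell share of TRBV17 in 5xFADTg parenchyma 1 (6.47%) and of TRBV30 in 5xFADTg parenchyma 2 (1.65%) stand above their other libraries.

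Counted as cells, TRBV17 lost its highest share when its largest clone was left out. The highest shares of TRBV14 and TRBV30 fell but stayed above their other libraries. The 2 high libraries of TRBV20 changed order but also stayed above the rest. TRBV17 was 2.82% and 2.09% of paired cells in NonTg parenchyma, 6.47% and 2.41% in 5xFADTg parenchyma, and 2.87% and 2.70% in NonTg and 5xFADTg meninges. One clonotype held 64 of the 78 TRBV17 cells in 5xFADTg parenchyma library 1, and without it TRBV17 was 1.23% of that library's paired cells, below the other 3 parenchyma libraries. TRBV30 was 1.65% of cells in 5xFADTg parenchyma library 2 and 0.0941 to 0.166% in the other parenchyma libraries. There 18 of 24 cells belonged to one clonotype, and without it the share was 0.418%. The other parenchyma libraries, counted without their largest clonotype, had 0 to 0.0830%. TRBV20 was 1.32% and 3.92% in NonTg parenchyma and 4.23% and 1.24% in 5xFADTg parenchyma, and its largest clonotypes held 10 of 30 cells in NonTg library 2 and 21 of 51 in 5xFADTg library 1. Without the largest clonotype of each library these 2 libraries had 2.65% and 2.53% of cells in TRBV20, and the other parenchyma libraries 1.22% and 1.10%. TRBV14 was 4.33% and 2.35% of cells in NonTg parenchyma, 2.74% and 2.06% in 5xFADTg parenchyma, 5.44% in NonTg meninges and 1.35% in 5xFADTg meninges. Without the largest clonotype it was still highest in NonTg meninges (4.07%) and, among parenchyma libraries, in NonTg library 1 (3.33%, the others 1.73 to 2.01%). TRBV31 ranged only from 1.91 to 3.13% of cells over the 6 libraries, and its largest clonotype had 7 cells.

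The largest clonotype of each segment is given by the bases of its TRB CDR3, since these clones hold the most cells of their segments. Capitals mark the bases between the germline V end and the germline J start, which hold the D segment and added bases.
TRBV17, 64 cells in 5xFADTg parenchyma 1: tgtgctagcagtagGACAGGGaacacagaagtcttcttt
TRBV20, 21 cells in 5xFADTg parenchyma 1: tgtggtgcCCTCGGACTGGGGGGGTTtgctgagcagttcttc
TRBV30, 18 cells in 5xFADTg parenchyma 2: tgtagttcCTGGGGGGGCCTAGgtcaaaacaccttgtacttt
TRBV14, 11 cells in NonTg parenchyma 1: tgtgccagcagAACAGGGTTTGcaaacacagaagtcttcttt
TRBV31, 7 cells in 5xFADTg parenchyma 2: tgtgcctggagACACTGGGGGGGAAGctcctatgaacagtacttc
TRBV23, 3 cells in 5xFADTg parenchyma 2: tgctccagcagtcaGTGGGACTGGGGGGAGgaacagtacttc
The TRBV17 clone joined TRBJ1-1 with 7 bases between V and J and read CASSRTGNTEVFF, with a TRA of TRAV9-2 and TRAJ31 (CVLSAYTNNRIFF). Counted by TRB alone, with cells that had no TRA contig, it reached 86 cells. The TRBV20 clone joined TRBJ2-1 with 18 such bases (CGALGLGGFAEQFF) and paired with TRAV12-2 and TRAJ40. The TRBV30 clone joined TRBJ2-4 (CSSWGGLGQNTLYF) and paired with TRAV10 and TRAJ5. A second TRBV30 clonotype in the same library had 5 cells (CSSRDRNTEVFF, TRAV3-3 and TRAJ31), so 23 of the 24 TRBV30 cells there belonged to expanded clonotypes.

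The TRBV14 clone of NonTg parenchyma library 1 (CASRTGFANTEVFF, TRBJ1-1) was counted as 2 clonotypes, of 11 cells with TRAV9-1 and TRAJ31 and of 7 cells with TRAV4-4 and TRAJ7. In 10 of these 18 cells both TRA chains were listed, and the TRA with most UMIs decided the count. Over all libraries 8 different member TRB sequences were split by TRA, 10 times in a library, into 20 of the 374 clonotypes. In 9 of these 10 cases some cells listed 2 TRA, and in 1 case (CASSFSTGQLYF of TRBV14) none did. The next largest TRBV14 clonotype had 9 cells (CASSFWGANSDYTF, TRBJ1-2, 5xFADTg parenchyma 1). For TRBV17 the next ones had 8 cells (TRBJ2-7 with TRAV8-2 and TRAJ43, NonTg parenchyma 1) and 7 cells (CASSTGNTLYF, 5xFADTg parenchyma 2). For TRBV20 they had 10 cells (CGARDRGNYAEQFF, NonTg parenchyma 2) and 9 cells (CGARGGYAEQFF, 5xFADTg parenchyma 1). TRBV31 had 2 clonotypes of 4 cells after its largest (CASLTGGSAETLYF in 5xFADTg parenchyma 2 and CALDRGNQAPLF in NonTg parenchyma 1), and TRBV23 had 1 expanded clonotype among 10.

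**Figure D3:**
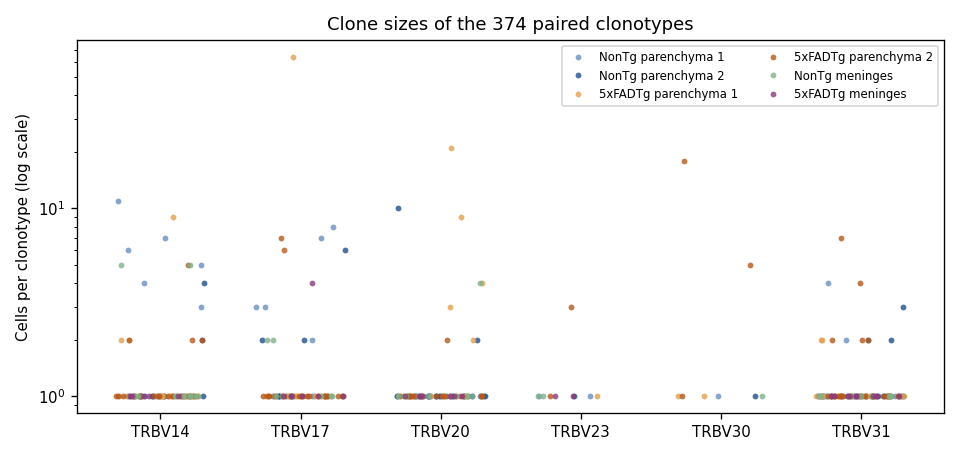
Cells per paired clonotype (log scale) for the 374 clonotypes of the 6 segments, coloured by library and spread sideways at random within a segment. Most clonotypes have 1 cell, and the highest points are the TRBV17 clone of 64 cells, the TRBV20 clone of 21 cells and the TRBV30 clone of 18 cells.

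Expanded clonotypes, those of 2 or more cells, used the 6 segments about as often as the rest. Of the 374 clonotypes 55 were expanded, or 14.7% (95% exact binomial interval 11.3 to 18.7%), beside 369 of 2734 other clonotypes, or 13.5% (12.2 to 14.8%). By segment the expanded share was 18.5% for TRBV14, 18.7% for TRBV17, 10.8% for TRBV20 and 11.3% for TRBV31. These pooled shares hide differences between libraries. TRBV17 had 5 of 12 and 3 of 9 clonotypes expanded in NonTg parenchyma, and 1 of 15 and 2 of 24 in 5xFADTg parenchyma, a difference that was not tested. TRBV14 had 6 of 16 in NonTg parenchyma 1 and 13.0 to 17.4% in the other parenchyma libraries. Those 6 include 2 TRB sequences that were each split by TRA into 2 expanded clonotypes. These were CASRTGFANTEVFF (11 and 7 cells) and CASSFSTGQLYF (6 and 3 cells). TRBV20 had 5 of 17 in 5xFADTg parenchyma 1 and 0 to 10% in the other parenchyma libraries. With library as block, edgeR called 3 of 120 segments (2.5% called), all lower among expanded clonotypes. Before adjustment 13 (10.8%) had a p under 0.05. No member was in either set. The called segments were TRAV11 and TRAJ18, which make the invariant natural killer T (iNKT) cell alpha chain, and TRBV13-2. The log2 fold changes, expanded over 1-cell clonotypes, were 0.48 for TRBV14 (SE 0.44), 0.52 for TRBV17 (SE 0.50), -0.37 for TRBV20 (SE 0.54), -0.29 for TRBV23 (SE 1.20) and -0.32 for TRBV31 (SE 0.47), with adjusted p of 0.707 to 0.974. The median was -0.29, beside -0.06 over all 120. With a library left out the estimate ranged from 0.090 to 0.65 for TRBV14, from 0.081 to 1.11 for TRBV17 and from -1.26 to -0.041 for TRBV20. The lowest value of TRBV14 and TRBV17 was that without NonTg parenchyma 1, and the lowest of TRBV20 that without 5xFADTg parenchyma 1. Counted by TRB alone in all libraries, the estimate was 0.046 for TRBV14, 0.61 for TRBV17 and -0.27 for TRBV20. It was 1.29 for TRBV23 and -0.061 for TRBV31. TRBV30, with 2 of 8 clonotypes expanded, was too rare to be tested.

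Clonotypes of these segments recurred between meninges and parenchyma of one genotype. Of 111 paired clonotypes found in more than 1 library, 15 used a member, and each joined the meninges library to a parenchyma library of the same genotype. The clone of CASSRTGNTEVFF had 64 cells in 5xFADTg parenchyma 1 and 4 in 5xFADTg meninges. Of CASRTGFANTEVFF with TRAV9-1, 11 cells lay in NonTg parenchyma 1 and 5 in the meninges of that genotype. For the TRBV20 clone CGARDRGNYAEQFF these were 10 cells, in NonTg parenchyma 2, and 4 cells. The 8-cell TRBV17 clonotype of NonTg parenchyma 1 had 2 meningeal cells. The TRBV14 clone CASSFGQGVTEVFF was larger in the NonTg meninges (5 cells) than in NonTg parenchyma 2 (4 cells). The other 10 totalled 2 to 8 cells each. In NonTg 12 of 38 meningeal member clonotypes were also found in parenchyma (31.6%, 95% exact binomial interval 17.5 to 48.7%), beside 54 of 248 others (21.8%, 16.8 to 27.4%). In 5xFADTg these were 3 of 31 (9.68%, 2.04 to 25.8%) and 41 of 295 (13.9%, 10.2 to 18.4%). TRBV14 gave 6 of the 12 in NonTg, out of 11 meningeal clonotypes, and 0 of 5 in 5xFADTg. The 12 hold 10 different TRB sequences and the 6 of TRBV14 hold 5, since 2 TRB were counted with more than one TRA. The difference between genotypes was not tested, since each meninges group is 1 library.

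One member TRB was found in both genotypes. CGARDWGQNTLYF, of TRBV20 and TRBJ2-4, occurred in NonTg parenchyma 2 and in 5xFADTg parenchyma 1 with the same bases, shown here because both junctions were identical.
TRBV20, in both genotypes: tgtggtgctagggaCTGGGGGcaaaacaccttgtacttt
It kept the whole V end of 14 bases, with 7 bases between V and J. Its TRA differed, being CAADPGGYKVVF of TRAV4-4 and TRAJ12 in NonTg and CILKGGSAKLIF of TRAV21 and TRAJ57 in 5xFADTg. The other 16 member TRB amino acid sequences found in 2 libraries stayed within one genotype.

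TRBJ1 and TRBJ2 joining differed little between members and other segments. TRBJ1 was used by 140 of 374 member clonotypes (37.4%, 95% exact binomial interval 32.5 to 42.6%) and by 938 of 2734 others (34.3%, 32.5 to 36.1%). TRBV20 had the highest member share, 38 of 83 (45.8%, 34.8 to 57.1%). TRBV31 followed with 42 of 106 (39.6%, 30.3 to 49.6%) and TRBV14 with 36 of 92 (39.1%, 29.1 to 49.9%). TRBV17 had 21 of 75 (28%, 18.2 to 39.6%), TRBV30 had 2 of 8 and TRBV23 had 1 of 10. By library TRBV20 had 42.9% and 45% in NonTg parenchyma, 47.1% and 47.1% in 5xFADTg parenchyma, 50% in NonTg meninges and 42.9% in 5xFADTg meninges. The segments other than TRBV20 had 32.0 to 37.3% in the same libraries, so TRBV20 was above them in 6 of 6. TRBV31 ranged from 26.9 to 57.1% and TRBV17 from 4.17 to 62.5%, on both sides of the rest.

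Over all TRBV segments edgeR called 1 of 21 (4.76% called), which was TRBV16, lower in TRBJ1. The log2 fold change of TRBV20, TRBJ1 over TRBJ2 with library as block, was 0.67 (SE 0.24, unadjusted p = 0.0347, adjusted p = 0.130), so it was not called. With cells counted it was 0.030 (adjusted p = 0.974). It was 1 of 6 segments (28.6%) with a p under 0.05 before adjustment. The others gave 0.31 for TRBV14 (SE 0.33), 0.32 for TRBV31 (SE 0.32), -0.38 for TRBV17 (SE 0.58) and -1.80 for TRBV23 (SE 1.13), with adjusted p of 0.313 to 0.652. The median over the 5 members was 0.31, beside 0.10 over all 21. When clonotypes were counted by their TRB alone, 6 segments were called and no member was among them. TRBV20 then had 42 of 101 in TRBJ1, 41.6%. The sign for TRBV17 turned without 5xFADTg parenchyma library 2, to 0.32, and with cells counted, to 0.99, where the 64-cell clone is in TRBJ1.

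Single J segments also varied. TRBJ1-1 was the most used TRBJ1 segment of TRBV14 (19 of 92 clonotypes, 20.7%), TRBV20 (17 of 83, 20.5%), TRBV17 (11 of 75, 14.7%) and TRBV31 (12 of 106, 11.3%), beside 297 of 2734 others (10.9%). TRBJ2-7 led in TRBV31 (19 of 106, 17.9%) and TRBV17 (15 of 75, 20%). In the other segments it was used by 546 of 2734 (19.97%), and in TRBV20 by 9 of 83 (10.8%). The constant regions matched the cluster: 395 member contigs joined TRBJ1 to TRBC1 and 503 joined TRBJ2 to TRBC2.

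**Figure D4:**
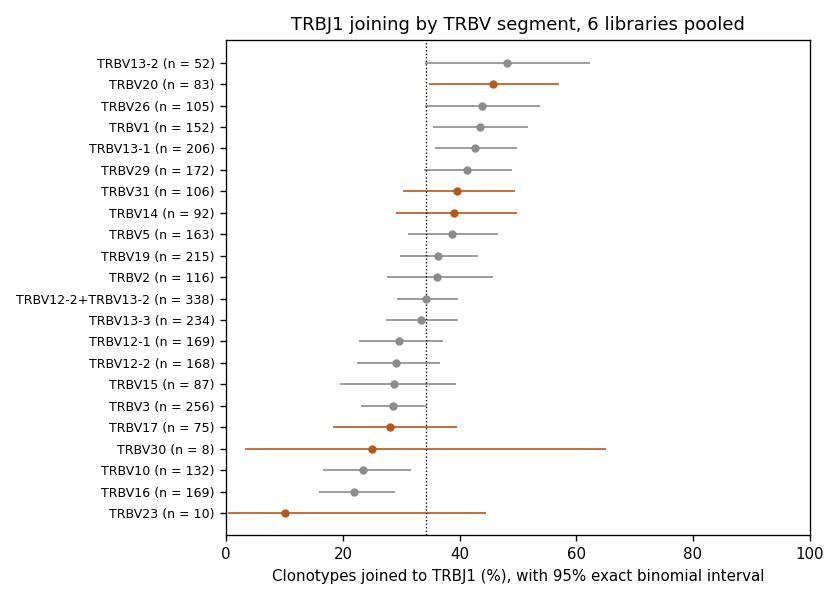
Share of paired clonotypes joined to TRBJ1 (%) for each TRBV label, with 95% exact binomial intervals, the 6 segments described here in orange and the share of all other segments together (34.3%) as a dotted line. TRBV20 is among the highest labels at 45.8%. The intervals of TRBV23 (10 clonotypes, 0.253 to 44.5%) and TRBV30 (8 clonotypes, 3.19 to 65.1%) are the widest.

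The CDR3 of these segments opened with the residues of their germline ends. TRBV31 gave CAW in 98 of 106 clonotypes and CAWS in 82. TRBV20 gave CGA in 79 of 83 and CGAR in 52. All 10 TRBV23 and all 8 TRBV30 clonotypes opened with CSS, and all of TRBV14 and TRBV17 with CAS. None of the 2734 other clonotypes opened with CAW, CGA or CSS, while 2572 of them (94.1%) opened with CAS. The 8 TRBV31 clonotypes without CAW were trimmed into the tryptophan codon, as in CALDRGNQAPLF and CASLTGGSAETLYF above.

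TRBV20 had the shortest CDR3 of the members tested. Its mean length was 12.8 and 13.1 residues in NonTg parenchyma, 12.9 and 12.8 in 5xFADTg parenchyma, 13.6 in NonTg meninges and 13.1 in 5xFADTg meninges. It was below the mean of the remaining segments in 6 of 6 libraries. In limma, on the difference from all other clonotypes within a library, TRBV20 was shorter by 0.99 residues (difference -0.99, SE 0.12, adjusted p = 5.83e-05, 6 libraries). Of 19 segments 8 were called (42.1% called), 4 longer (21.1%) and 4 shorter (21.1%), so a length of its own was common among V segments. The other members were not called. TRBV14 differed by -0.20 (SE 0.10, adjusted p = 0.131), TRBV31 by -0.14 (SE 0.11, adjusted p = 0.266) and TRBV17 by 0.29 (SE 0.14, adjusted p = 0.119). Without the 5xFADTg meninges TRBV17 was called longer (0.40, adjusted p = 0.0357 in limma) and TRBV31 shorter (-0.25, adjusted p = 0.0486), and by TRB alone TRBV14 was called shorter (-0.29, adjusted p = 0.0307). The median of the 4 was -0.17, beside -0.14 over all 19. TRBV23 (mean 14.6, range 13 to 18) and TRBV30 (mean 12.6, range 11 to 14) had too few clonotypes per library to be tested.

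The shorter CDR3 of TRBV20 had fewer V bases and fewer bases between V and J. Matching each CDR3 to the germline left a mean of 11.46 V bases in TRBV20, 12.9 in TRBV14, 14.1 in TRBV17 and 12.4 in TRBV31, beside 13.8 in the other segments with a single germline match. The gap between V and J was 9.22 bases in TRBV20 (SD 3.77 over 83 clonotypes) and 10.1 in the others (SD 3.84 over 2264). The J part was 18.3 and 18.4 bases. In limma the gap of TRBV20 was 0.86 bases shorter (difference -0.86, SE 0.22, adjusted p = 0.0230, below the others in 6 of 6 libraries), with 3 of 18 segments called (16.7% called), of which TRBV20 alone was shorter (5.56%). Before adjustment 6 (33.3%) had a p under 0.05. This call was lost without NonTg parenchyma library 1 (adjusted p = 0.0683), NonTg parenchyma library 2 (0.0619) or 5xFADTg parenchyma library 2 (0.0863), and with means over cells (0.302). The gaps of TRBV14 (0.40, SE 0.52), TRBV31 (0.35, SE 0.27) and TRBV17 (0.24, SE 0.44) were not called, with adjusted p of 0.356 to 0.675 in limma. The median of the 4 was 0.30, beside -0.01 over all 18.

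TRBV31 lost few V bases, as did several other segments. The whole 14-base end was present in 47 of 106 clonotypes (44.3%, 95% exact binomial interval 34.7 to 54.3%), beside 490 of 2264 in the other segments with a single germline match (21.6%, 19.96 to 23.4%). TRBV31 lost a mean of 1.57 V bases and the others 3.08, and its mean loss was lower in 6 of 6 libraries (0.810 to 2.5 bases, beside 2.87 to 3.25). Among 20 segments with a single germline end it ranked 2 by the smallest loss, after TRBV2 (1.37) and just before TRBV5 (1.59), TRBV12-1 (1.65) and TRBV12-2 (1.71). TRBV3, at 7.45, had the largest count, and 0 of its 256 clonotypes held the whole end. The ends were read from transcripts and were not checked against the genome, so this value may not be trimming alone. TRBV3 is also part of the 3.08 of the others. TRBV20 lost 2.54 bases on average, ranked 9 of the 20, and kept its whole end in 24 of 83 clonotypes. Its mean was also below the pooled others in 6 of 6 libraries, but these include TRBV3 with 256 clonotypes. TRBV14 lost 3.14 and kept its 16-base end in 1 of 92. These are descriptions with no test, and an added base that happens to equal the germline base is counted as kept.

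**Figure D5:**
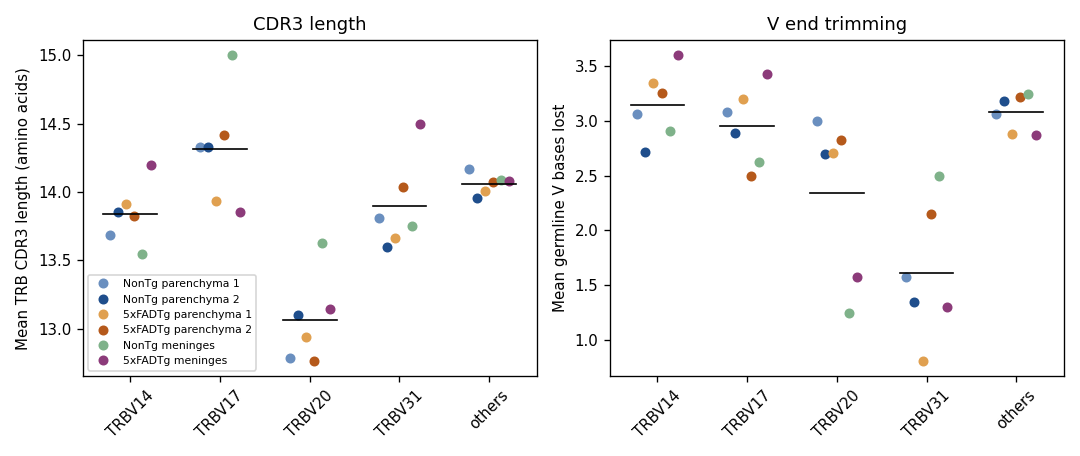
Mean TRB CDR3 length (left, amino acids) and mean number of germline V bases lost (right) per library, one point per library and a black line at the mean of the 6 libraries, for the 4 members with most clonotypes and for all other segments. TRBV20 points lie at 12.8 to 13.6 residues, below the others in 6 of 6 libraries. TRBV31 and TRBV20 both lost fewer V bases than the pooled others in 6 of 6 libraries, where the others include TRBV3 at 7.45.

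Member receptors seldom had the iNKT alpha chain. In edgeR, comparing clonotypes with a member against those with another TRBV within libraries, 3 of 87 TRAV and TRAJ segments were called (3.45% called), 1 higher (1.15%) and 2 lower (2.3%) with members. Before adjustment 9 (10.3%) had a p under 0.05. TRAV11 was in 3 of 374 member clonotypes and in 168 of 2734 others (log2 fold change -2.82, SE 0.55, adjusted p = 6.24e-05, lower in 6 of 6 libraries). TRAJ18 was in 6 and 200 (-2.12, SE 0.44, adjusted p = 1.57e-04, lower in 6 of 6). Both calls were lost with cells counted (adjusted p = 0.0791). Both code the alpha chain of mouse iNKT cells, lipid-reactive T cells known to use TRBV13, TRBV29 or TRBV1. By receptor, taken as TRAV11 with TRAJ18 and a TRA CDR3 of 15 residues, 2 of 374 member clonotypes were iNKT-like (0.535%, 95% exact binomial interval 0.0648 to 1.92%), beside 163 of 2734 others (5.96%, 5.10 to 6.92%). These were 1 TRBV31 clonotype in 5xFADTg meninges and 1 TRBV17 clonotype in NonTg meninges, each of 1 cell and both with one and the same TRA CDR3 amino acid sequence. Without iNKT-like clonotypes TRAJ18 was no longer called (-0.40, adjusted p = 0.994). That set is defined by TRAV11 and TRAJ18, so the loss of the call follows largely from the definition. TRAV11 was not among the segments tested in that fit. MAIT-like receptors, TRAV1 with TRAJ33 and a TRA CDR3 of 12 residues, were 0 of 374 and 23 of 2734 others (0.841%). The 0 allows up to 0.802% by the limit of 3 counts and 0.981% by the exact binomial interval. The second limit lies above the share of the others, so a lower share in members was not shown.

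TRAJ2 was the segment called higher. It was in 10 of 374 member clonotypes (2.67%, 1.29 to 4.86%) and in 13 of 2734 others (0.475%, 0.253 to 0.812%), a log2 fold change of 2.38 (SE 0.65, adjusted p = 0.00726, higher in 5 of 6 libraries). By library the member counts were 2, 1, 1, 5, 1 and 0, in the order NonTg parenchyma 1 and 2, 5xFADTg parenchyma 1 and 2, NonTg meninges and 5xFADTg meninges. The 10 clonotypes used TRBV14 (3), TRBV20 (3), TRBV17 (2) and TRBV31 (2), with different TRA CDR3 sequences. The call was lost without NonTg parenchyma library 1 (adjusted p = 0.100), without 5xFADTg parenchyma library 2 (0.476), in DESeq2 (0.0564) and with cells counted (0.152). The next smallest p-values were those of TRAV4-4 (20 and 64 clonotypes, 1.14, adjusted p = 0.147), TRAJ22 (35 and 151, 0.74, adjusted p = 0.164) and, lower, TRAV6-1 (0 and 23, adjusted p = 0.282).

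The partners most often seen with members were also frequent elsewhere. TRAV12-2 was in 23 member clonotypes (6.15%, others 5.34%), TRAV3-3 in 22 (5.88%, others 5.63%), TRAV16 in 21 (5.61%, others 5.63%) and TRAV9-4 in 17 (4.55%, others 2.60%). Among J segments after TRAJ22, TRAJ31 was in 23 (6.15%, others 4.61%), TRAJ26 in 17 (4.55%, others 4.32%), TRAJ30 in 16 (4.28%, others 3.804%) and TRAJ23 in 15 (4.01%, others 4.10%). None of these passed the test, with adjusted p of 0.485 to 0.963. TRBV31 paired with 36 TRAV segments in 106 clonotypes and TRBV20 with 35 in 83. TRBV14 paired with 31 in 92 and TRBV17 with 30 in 75. Such counts depend on the number of clonotypes and were not compared with those of other TRBV segments. A TRA was missing in 151 of 901 member contigs (16.8%, 14.4 to 19.4%) and in 1105 of 6356 others (17.4%, 16.5 to 18.3%). TRBV23 stood apart with 10 of 22 (45.5%, 24.4 to 67.8%), TRBV14 was lowest with 21 of 191 (11.0%, 6.94 to 16.3%), and the other 4 members had 14.5 to 19.1%.

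Out-of-frame or otherwise nonproductive TRB contigs showed a different order of the segments. TRBV31 had 189 nonproductive contigs beside 188 productive ones, the highest number of the 22 labels. One sequence, found with one TRBV1 clone of 5xFADTg parenchyma 2 and 5xFADTg meninges, accounted for 129 of the 189, and 60 remained without it (24.2%), which would rank 5. The segments outside the 6 members had 707 nonproductive contigs of 7063 (10.0%). These segments were uneven: TRBV15 had 106 beside 153 productive ones (40.9%) and TRBV10 had 109 beside 289 (27.4%). Both shares were above the 24.2% of TRBV31, while the rest ran from 3.53 to 18.9%. TRBV23 had 52 beside 22 (70.3%, 95% exact binomial interval 58.5 to 80.3%), spread over 5 of the 6 libraries, with 27 in 5xFADTg parenchyma 2. TRBV17 had 41 beside 248 (14.2%), TRBV20 had 21 beside 214 (8.94%), TRBV14 had 17 beside 191 (8.17%) and TRBV30 had 4 beside 38 (9.52%).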

How the data were processed

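Per the file headers, each of the 6 contig tables the authors deposited gives, per contig, its segments, its CDR3, whether it is productive, and unnormalized counts of reads and UMIs. Per the labels' protocols, the libraries were made with the Chromium immune profiling kit (v2), and Cell Ranger 6.0 and mm10 are named in the submitters' processing notes. The 6 gene expression samples were not analysed here.

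From these tables, productive TRB contigs were selected by V label. Cells with 2 or more productive TRB (431) or with 1 TRB and no TRA (1188) stayed out of paired clonotypes, and no other doublet filter was run. D and N copies of TRAV segments were collapsed. Germline ends came from GENCODE M21. TRBV10 had no germline match and was left out of the gap test, and a joint label was matched to both of its segments.

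Segment counts were tested with edgeR 4.0.16 (quasi-likelihood, a library's size being its total of clonotypes, with a minimum of 10 clonotypes for a segment, Benjamini-Hochberg adjustment over all segments tested, adjusted p threshold 0.05) in R 4.3.3. CDR3 means were tested with limma 3.58.1 for segments with at least 3 clonotypes in every library. Standard errors in edgeR are the fold change over the root of F. The fits were also run on simulated data with known changes. In the count fits these changes were placed in frequent segments, so rare segments were not covered. No outcome of that run is used here. Alternatives were TMM factors, DESeq2 1.42.0, no count filter, cells, TRB alone, expansion from 3 cells, no iNKT-like clonotypes, at least 5 clonotypes, means over cells, each library left out and the replicate number as block. Intervals are 95% Clopper-Pearson, and a count of 0 is given the limit of 3 counts. Both cover counting error only, as PCR reads and cells of a clone are not independent. Named were the 6 members in every fit, called TRA segments, the 3 with smallest p each way, the 5 TRAV and 5 TRAJ with most member clonotypes, each member's 3 largest clonotypes, up to 10 shared ones and the TRBV of most similar use. The members and lists were chosen with earlier results of these data known. Python 3.11.15, pandas 2.3.3 and scipy 1.17.1 were used.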

Additional observations from a re-analysis of the deposited data

Results flagged for a closer look

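A beta chain of TRBV20 sat beside a second productive beta chain in one clone of 5xFADTg parenchyma library 1, in cells left out of the paired clonotypes. In 33 cells the TRBV20 chain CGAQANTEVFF and the TRBV19 chain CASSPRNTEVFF were both listed, out of 39 cells with either. Both joined TRBJ1-1, and capitals mark the bases between V and J.
TRBV20: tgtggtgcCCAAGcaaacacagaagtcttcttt
TRBV19: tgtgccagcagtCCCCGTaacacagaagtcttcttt
The median UMI counts were 7 for TRBV20 and 9 for TRBV19. A TRA of TRAV15-2 and TRAJ2 was listed in 27 of the 33 cells and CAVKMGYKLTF, of TRAJ9, in 20, and 15 cells had 2 TRA. A further 3 paired cells with the same TRB and TRAJ2 chain formed one of the 10 TRAJ2 member clonotypes. The pair accounts for 32.0% of the 103 TRBV20 contigs of that library. Over all libraries 25.2% of TRBV20 contigs lay in cells with 2 TRB. Outside that pair it was 11.6% (21 of 181), and in the segments outside the 6 members it was 11.6%. Of the 90 different TRB pairs with a member, 87 were seen in 1 cell.

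One out-of-frame TRBV31 contig recurred in 105 cells of 5xFADTg parenchyma 2 and in 15 cells of 5xFADTg meninges, with none in the other 4 libraries.
TRBV31 with TRBJ1-3: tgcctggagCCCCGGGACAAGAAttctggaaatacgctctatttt
Capitals mark the bases between V and J. The listed sequence opens inside the V end, and V and J are 2 bases out of frame. In the parenchyma library 96 of the 115 cells with the productive TRBV1 chain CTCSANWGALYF carried it (83.5%), 7 of the 105 had no productive TRB and 2 another one. In the meninges library it was in 15 of 18 such cells (83.3%). The other 4 libraries held 0 cells with that TRBV1 chain. Its 129 contigs were most of the 189 nonproductive contigs of TRBV31, and 60 remained without it, 24.2% of TRBV31 contigs (95% exact binomial interval 19.0 to 30.0%).

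Over the 4 parenchyma libraries 18 sets of shares were examined for one library far from the others, where chance flags about 1 in 20. TRBV17 stood out by its share of paired cells, 6.47% in 5xFADTg parenchyma 1, and TRBV30 by its share of paired cells, 1.65%, and of TRB contigs, 1.37%, in 5xFADTg parenchyma 2. Each of these libraries holds the large clone described in the report. TRBV14 stood out by its share of TRB contigs, 3.79% in NonTg parenchyma 1.

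Meninges and parenchyma differed in opposite directions in the genotypes for 3 of the 6 segments, with the difference not tested. The same held for 4 of the 16 other TRBV labels when every parenchyma library had to agree. By group means it held for 11 of those 16 and again for 3 of the 6 members. TRBV20, TRBV23 and TRBV31 differed in the same direction in both genotypes on average. For TRBV14 the NonTg meninges lay 0.967 percentage points of clonotypes above the NonTg parenchyma mean, and the 5xFADTg meninges differed by -1.68 points from theirs. For TRBV17 these were 0.805 and -0.525 points, and for TRBV30 0.156 and -0.344 points, the last on 0 to 3 clonotypes per library.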

How the results depend on the processing

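Genotype and tissue calls stayed at 0 under every alternative run except genotype with cells counted, where 1 segment, TRAV6-5, was called. Calls among expanded clonotypes went from 3 to 6 with TMM factors, 1 with DESeq2, 1 with expansion from 3 cells and 0 by TRB alone. With a library left out they were 1 to 3, the 1 without 5xFADTg parenchyma 2. TRBJ cluster calls went from 1 to 6 by TRB alone and 0 with cells counted, and to 0 to 1 with a library left out, the 0 without either 5xFADTg parenchyma library. TRA partner calls went from 3 to 0 with cells counted and 1 without iNKT-like clonotypes, and to 2 to 4 with a library left out. CDR3 length calls went from 8 to 5 with means over cells, and to 5 to 8 with a library left out, the 5 without NonTg parenchyma 1 or 5xFADTg parenchyma 1. Gap calls went from 3 to 0 with means over cells, and to 0 to 4 with a library left out, the 0 without NonTg parenchyma 1 or 2 or 5xFADTg parenchyma 2.

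The following estimates changed sign, and none of them was called. With cells counted, TRBV14 was -0.49 and TRBV20 0.074 for genotype, and TRBV14 was 0.082, TRBV17 -0.25 and TRBV31 0.011 for tissue. With cells counted, TRBV17 was also 0.99 for TRBJ cluster, and TRAJ30 -0.090, TRAV16 0.17 and TRAV3-3 -0.081 as partners. By TRB alone, TRBV17 was -0.18 for tissue and TRBV23 1.29 for expansion. With expansion from 3 cells, TRBV20 was 0.018 and TRBV23 0.56. In DESeq2, TRBV23 was 0.050 for expansion, TRAJ26 -0.046 and TRAV3-3 -0.12. With TMM factors, TRAJ26 was -0.33, TRAJ30 -0.24, TRAV12-2 -0.21 and TRAV3-3 -0.35. Without iNKT-like clonotypes TRAV3-3 was -0.028. With means over cells, TRBV17 was -0.014 for CDR3 length and -0.70 for the gap. With a library left out, TRBV20 ranged from -0.91 to 0.031 for genotype. For tissue, TRBV14 ranged from -1.05 to 0.43, TRBV17 from -0.33 to 0.49 and TRBV20 from -0.41 to 0.049. For TRBJ cluster, TRBV17 ranged from -0.73 to 0.32. Among partners, TRAJ23 ranged from -0.72 to 0.16, TRAJ26 from -0.028 to 0.24, TRAV12-2 from -0.083 to 0.53, TRAV16 from -0.069 to 0.087 and TRAV3-3 from -0.36 to 0.23. For the gap, TRBV14 ranged from -0.14 to 0.81 and TRBV17 from -0.21 to 0.54. The causes were not tested.

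With the replicate number as block, genotype calls stayed at 0, with 7 segments at an unadjusted p under 0.05 in edgeR. Same-numbered libraries correlated by 0.0781 over 118 segments and 2 pairs. The labels name no shared animal, batch or day, and whether one exists was not tested. NonTg meninges shared 47 and 19 paired clonotypes with NonTg parenchyma 1 and 2, and 5xFADTg meninges shared 26 and 18 with 5xFADTg parenchyma 1 and 2. Every other pair of libraries shared 0 or 1. The tests over 6 libraries took these libraries as independent and counted a shared clonotype in each. Their standard errors and p-values, and counts of libraries that agree, do not allow for this overlap. Of the values for single segments 357 kept their direction and side of the threshold, 40 changed sign, 11 fell below it and 4 passed it. With 10 and 8 clonotypes, the shares within TRBV23 and TRBV30 have wide intervals.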
